A study of Mus musculus with 6 samples.

Results

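The 10 genes described here are the G1 cyclins and CDK inhibitors Ccnd1, Ccnd2, Ccnd3, Ccne1, Ccne2, Cdkn1b, Cdkn2a, Cdkn2b and Cdkn2c, with the transcription factor gene E2f1. They were chosen by name, with earlier results of these data known, and all 10 were found among the 49585 genes of the count table. All 10 had a mean count of at least 10 and were among the 12130 genes tested. PolyA RNA was sequenced from AML12, an immortal hepatocyte line derived from mice that carry a transgene for the growth factor TGF-alpha. The control cells received an expression construct with the open reading frame of EGFP, a fluorescent protein. The other cells received one with that of Zac1, the transcription factor with zinc fingers that the imprinted gene Plagl1 encodes. RNA was taken 24 h later, in 3 libraries per group (EGFP replicates 1 to 3, Zac1 replicates 4 to 6). Both groups are one cell line under a transient transfection. What promoter drives the constructs, and what share of cells took them up, is not given in the labels. The labels also do not say whether replicates are separate cultures. The p-values therefore describe the spread between the libraries at hand, and that spread may be technical.

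D-type cyclins (Ccnd1, Ccnd2, Ccnd3) bind the kinases CDK4 and CDK6, which phosphorylate the retinoblastoma protein and so free E2F factors such as E2F1. Free E2F turns on the E-type cyclins (Ccne1, Ccne2), which with CDK2 carry the cell from G1 into S phase. INK4 proteins (from Cdkn2a, Cdkn2b and Cdkn2c) block CDK4 and CDK6, while the CIP/KIP protein from Cdkn1b mainly blocks cyclin E with CDK2. Hepatocytes of the adult liver are mostly out of the cycle and re-enter it after injury, with a rise of cyclin D1. Zac1 has been described as a gene that can hold back proliferation, so the comparison of Zac1 with EGFP asks whether transcripts of the G1 machinery differ once it is over-expressed.

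Library totals ran from 14801240 to 18302538 reads and the 3 Zac1 libraries were deeper than the 3 EGFP libraries. Plagl1 was read 39 to 79 times in EGFP libraries and 106033 to 148382 times in Zac1 libraries, which matches the labels. Of 11 hepatocyte markers in the table, 7 were tested, among them Alb and Hnf4a, and Ahsg, Fgb, Cps1 and Cyp3a11 were below the count minimum. The summed level of the hepatocyte markers was 1597 to 1848 CPM (reads relative to the TMM-scaled library total) in EGFP and 1463 to 1732 CPM in Zac1. Most of that sum was Apob (means 1354 and 1270 CPM), while Alb was at 34.6 and 34.7 CPM. Epithelial keratin and biliary markers (7 genes) had a larger sum, 3776 to 4332 CPM in EGFP and 3935 to 4624 CPM in Zac1. Of them 6 were tested and 0 called. Krt8 had means of 1748 and 1887 CPM and Krt19 of 257 and 253 CPM, while Epcam had 1 read in all EGFP and 3 in all Zac1 libraries. Markers of stellate cells and fibroblasts (8 genes) summed to 0.604 to 1.01 CPM in EGFP and 2.24 to 2.72 CPM in Zac1, with Lrat and Dcn at 0 in every library. Endothelial markers (6 genes) summed to 0.537 to 0.877 CPM in EGFP and 0.747 to 1.25 CPM in Zac1, and macrophage and leukocyte markers (6 genes) to 49.7 to 54.0 CPM and 45.7 to 52.0 CPM. Nearly all of the last sum was Cd14 (means 49.3 and 46.7 CPM), while Csf1r had 0 reads in each EGFP library and 7, 4 and 19 in the Zac1 libraries. The part of these markers in the results below was not tested. In bulk RNA, a changed share of cells in a phase of the cycle and a changed amount of RNA per cell cannot be told apart.

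One of the 10 genes, the E-type cyclin gene Ccne1, was higher in Zac1, and none was lower. The edgeR quasi-likelihood test, adjusted over all tested genes at a threshold of 0.05, called 1 of 10 higher and 0 of 10 lower. At an unadjusted p under 0.05, 3 of the 10 were higher and 0 lower. Of all tested genes 3.78% were called, 3.12% as higher and 0.668% as lower, and 9.41% were higher and 6.43% lower at an unadjusted p under 0.05. With 10 genes, 1 call is too few to set against that background. The median log2 fold change of the 10 was 0.05, against -0.002 over all tested genes, and 8 were above 0 and 2 below 0. The median GC content of their longest transcripts was 54.3%, against 49.4% over tested genes, and fold changes followed GC. With each library corrected for GC content, Cdkn2a (-0.070) and E2f1 (-0.018) fell below 0 and Cdkn1b (0.024) rose above it. The part of GC content in the median of the 10 was not tested. The Zac1 and EGFP libraries did not overlap for 3 of the 10, Ccnd1, Ccnd3 and Ccne1, all higher. Over all tested genes the groups did not overlap for 20.6%, with 11.9% higher and 8.75% lower.

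**Figure D1:**
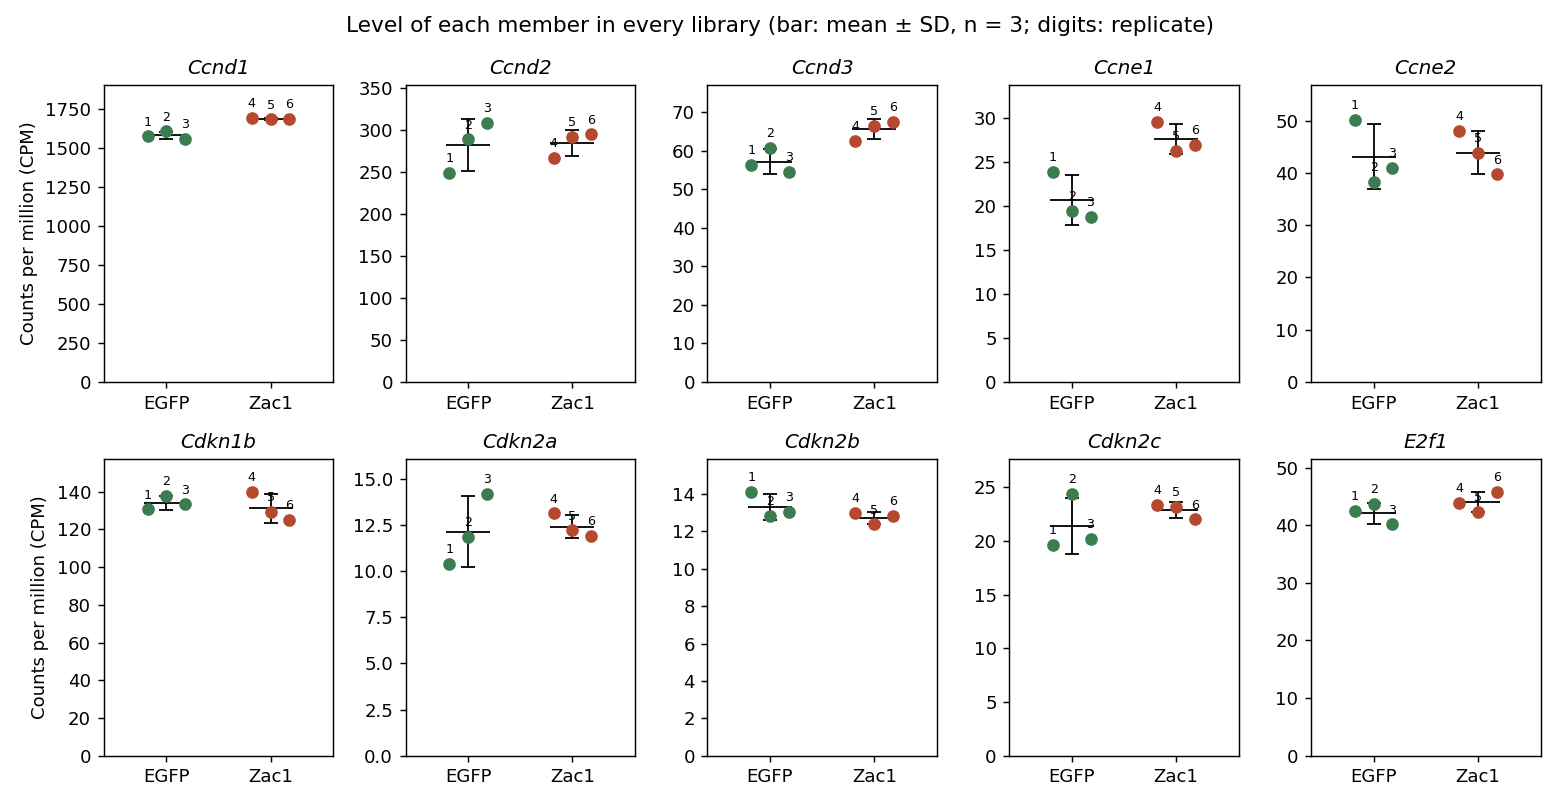
Level of each gene in CPM (vertical axes, from 0) in every library of the EGFP (green) and Zac1 (red) groups; digits are replicate numbers, and bars give the mean ± SD of 3 libraries. The groups are apart for Ccnd1, Ccnd3 and Ccne1, and overlap for the other 7 genes.

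Ccne1 (ENSMUSG00000002068; GRCm38 chromosome 7, 38097984 to 38107534, minus strand) encodes cyclin E1, the partner that activates CDK2 late in G1. It was read 359, 289 and 278 times in EGFP replicates 1, 2 and 3 and 475, 448 and 496 times in Zac1 replicates 4, 5 and 6. Its level was 23.9, 19.4 and 18.8 CPM in EGFP and 29.6, 26.3 and 27.0 CPM in Zac1. EGFP replicate 1 was the highest control, yet the lowest Zac1 library lay above it. The mean rose from 20.7 ± 2.80 to 27.6 ± 1.73 CPM (SD, n = 3 per group), a 1.33-fold change (log2 fold change 0.41, SE 0.10, 95% interval 0.20 to 0.63, edgeR adjusted p = 0.0292).

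That call did not hold in every fit with 1 library left out. Without EGFP 1 the log2 fold change of Ccne1 was 0.54 (adjusted p = 0.00291), and without Zac1 4 it was 0.36 (adjusted p = 0.0354). The call was lost without EGFP 2 (0.37, adjusted p = 0.1), EGFP 3 (0.35, adjusted p = 0.196), Zac1 5 (0.45, adjusted p = 0.0844) or Zac1 6 (0.43, adjusted p = 0.093). It was also just lost when each library was corrected for GC content (0.38, adjusted p = 0.0538). Fold changes followed transcript GC across the tested genes (Spearman's rho 0.40, given as a description over 12116 genes that share the same 6 libraries). The longest Ccne1 transcript has a GC content of 52.7%, against a median of 49.4% over tested genes with a value. DESeq2 (adjusted p = 0.0175), limma on log2(CPM + 1) (adjusted p = 0.031) and voom with library quality weights (adjusted p = 0.0041) also called it. In all 19 alternative settings its fold change stayed above 0. Since every Zac1 library lay above every EGFP library, leaving libraries out could hardly reverse that sign.

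The proximal promoter of Ccne1 is shown because Ccne1 is the gene of the 10 that passed the test, and that of the upstream start of Cdkn2a because it alone held a match to the E2F letters searched. The windows run from 250 bases before to 50 bases after a RefSeq start (build GRCm38.p6), on the gene's strand. Both genes lie on the minus strand, at chr7:38107441-38107740 and chr4:89294570-89294869. Capitals mark the match.
Ccne1: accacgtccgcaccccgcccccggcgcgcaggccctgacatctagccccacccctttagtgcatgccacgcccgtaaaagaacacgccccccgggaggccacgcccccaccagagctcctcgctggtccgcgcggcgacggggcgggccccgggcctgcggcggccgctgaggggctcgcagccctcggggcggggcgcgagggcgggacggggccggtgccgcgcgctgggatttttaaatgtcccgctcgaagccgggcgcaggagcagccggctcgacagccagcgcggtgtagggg
Cdkn2a: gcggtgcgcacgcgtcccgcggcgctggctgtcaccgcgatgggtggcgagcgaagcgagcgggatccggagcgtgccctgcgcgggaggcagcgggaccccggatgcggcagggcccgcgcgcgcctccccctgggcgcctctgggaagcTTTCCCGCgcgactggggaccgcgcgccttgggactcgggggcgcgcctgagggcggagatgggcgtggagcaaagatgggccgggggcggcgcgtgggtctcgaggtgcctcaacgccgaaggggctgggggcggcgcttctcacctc
The E2F letters searched were TTTCGCGC, TTTCCCGC, TTTGGCGC and TTTGCCGC, on both strands. RefSeq windows were found for 7 of the 10 genes (10 windows). The Cdkn2a window above holds TTTCCCGC from position 152, and 0 of the other 9 windows holds a match. The E2f1 window (chr2:154569377-154569676) lies inside the gene, which starts at 154569892 on the minus strand in the annotation. The Cdkn2c windows also lie inside their gene, which starts at 109667189. The bases before these annotated starts of E2f1 and Cdkn2c were therefore not searched. Of 32851 promoter windows of the same length, 744 (2.26%) hold an E2F match. Zac1 is known to bind GC-rich sites. The GC-rich palindrome GGGGCCCC, taken as a short form of such a site, was in 0 of the 10 windows, the Ccne1 window included, and in 1.08% of all windows. The matches overlap no other motif searched. The absence of a match says only that these letters are not in these windows.

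Ccne2 encodes cyclin E2, which has the same role as cyclin E1 and is also an E2F target. Its levels were 50.1, 38.3 and 41.0 CPM in EGFP and 48.1, 43.9 and 39.7 CPM in Zac1, so the groups overlapped. The means were 43.2 ± 6.18 and 43.9 ± 4.19 CPM, a log2 fold change of 0.02 (SE 0.10, 95% interval -0.19 to 0.23, adjusted p = 0.94). The Ccne2 gene overlaps Ints8 on the other strand over 609 exonic bases, and no source says whether reads were counted by strand. Ints8 was read 763 to 888 times in EGFP and 837 to 880 times in Zac1. Within EGFP, the replicates of Ccne2 had an SD of 14.3% of their mean, second to Cdkn2a among the 10 genes.

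The ratio of Ccne1 to Ccne2 within a library does not depend on scaling between libraries. Measured as CPM per kilobase of the longest transcript, it was 0.717, 0.761 and 0.687 in EGFP and 0.924, 0.9 and 1.02 in Zac1. The lowest Zac1 library was above the highest EGFP library, and the means were 0.722 ± 0.037 and 0.948 ± 0.0634 (SD, n = 3). An exact two-sided permutation test over the libraries gave p = 0.1, the smallest that 3 against 3 can give. This ratio was chosen after the values of both genes were seen. It can still depend on GC content, which is 52.7% for the longest Ccne1 transcript and 35.0% for that of Ccne2. With GC offsets the log2 fold change was 0.38 for Ccne1 and 0.13 for Ccne2, against 0.41 and 0.02 in the main fit. The ratio itself was not tested with GC offsets.

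Ccnd1, the cyclin D1 gene, was by far the most abundant of the 10. Its level was 1575, 1607 and 1562 CPM in EGFP and 1695, 1685 and 1686 CPM in Zac1. The 3 Zac1 libraries lay close together, and all of them above the EGFP libraries. The difference was small, at 1.07-fold (log2 fold change 0.09, SE 0.04, 95% interval 0.01 to 0.18), and it did not pass the test over all genes (edgeR adjusted p = 0.261). It did not pass in any of the alternative settings that test it, with adjusted p from 0.0694 to 0.601. Ccnd1 shares 1100 exonic bases with LTO1 on the other strand, which was read 468 to 659 times, against 23142 to 31021 reads of Ccnd1.

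Ccnd3, the cyclin D3 gene, was at 56.3, 60.7 and 54.6 CPM in EGFP and 62.7, 66.4 and 67.6 CPM in Zac1. The groups did not overlap, although EGFP 2 and Zac1 4 were close. The log2 fold change was 0.20 (SE 0.06, 95% interval 0.06 to 0.33), with an unadjusted p of 0.00822 and an edgeR adjusted p = 0.123, so it did not pass. It passed as higher without Zac1 4 (0.23, adjusted p = 0.0448), without EGFP 1 and Zac1 4 together (0.22, adjusted p = 0.0184) and with voom quality weights (0.22, adjusted p = 0.0168). EGFP 1 and Zac1 4 differed most from the other replicates of their groups. Leaving them out lowers the replicate spread, so the p-value of that fit is no firmer evidence. With GC offsets the log2 fold change of Ccnd3 was 0.13 (adjusted p = 0.197), and its longest transcript has a GC content of 56.7%. Ccnd3 shares 361 exonic bases with Bysl on the other strand, which had 887 to 1057 reads in EGFP and 1082 to 1184 in Zac1. That is more than Ccnd3 itself had in EGFP, at 809 to 905 reads.

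Ccnd2, the cyclin D2 gene, was at 248, 289 and 309 CPM in EGFP and 266, 292 and 295 CPM in Zac1. EGFP 1 and Zac1 4 were the lowest of their groups, and the groups overlapped. The log2 fold change was 0.01 (SE 0.07, 95% interval -0.14 to 0.16, adjusted p = 0.956), and its sign changed with the library left out. The antisense genes that overlap Ccnd2, 9330179D12Rik and Gm43126, had at most 26 reads in a library.

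Within the D-type cyclins, per kilobase of the longest transcript, Ccnd1 made up 87.7% ± 0.892 of the summed level in EGFP (SD, n = 3) and 87.9% ± 0.571 in Zac1. The exact two-sided permutation test gave p = 0.7. Ccnd2 made up 9.23% ± 0.942 and 8.75% ± 0.453 (exact p = 0.4), and Ccnd3 3.07% ± 0.13 and 3.31% ± 0.12 (exact p = 0.2). With 3 libraries per group these tests cannot go below 0.1.

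**Figure D2:**
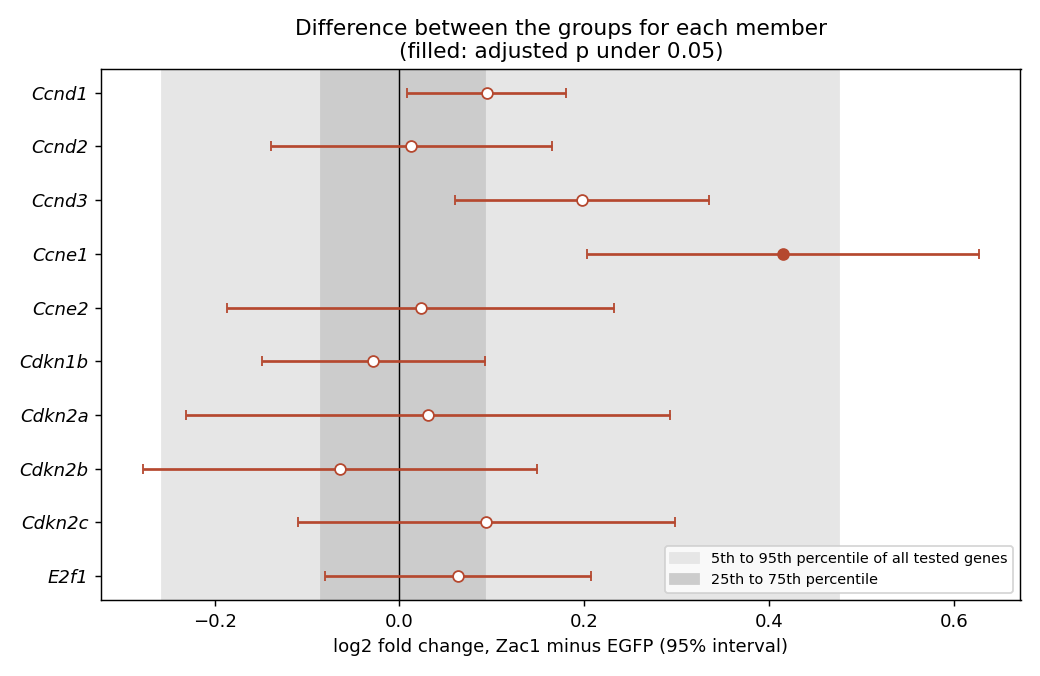
Log2 fold change (horizontal axis, Zac1 minus EGFP) of each gene with its 95% interval, over grey bands for the middle of all 12130 tested genes (5th to 95th percentile, -0.26 to 0.48, and 25th to 75th, -0.09 to 0.09). The filled point is Ccne1 at 0.41, the gene that passed the test; Ccnd3 at 0.20 is the next.

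The CDK inhibitors showed no call in either direction. Cdkn1b encodes the CIP/KIP inhibitor of cyclin E and CDK2. It was at 131, 138 and 133 CPM in EGFP and 140, 129 and 125 CPM in Zac1. Its groups overlapped, with a log2 fold change of -0.03 (SE 0.06, 95% interval -0.15 to 0.09, adjusted p = 0.86). On the fold scale that interval runs from 0.902 to 1.07.

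Cdkn2a gives 2 proteins from different first exons, the CDK4 and CDK6 inhibitor p16Ink4a and the p53 activator p19Arf, and counts per gene do not tell them apart. The E2F match shown above lies at the upstream start alone, and the window of the other start (chr4:89282143-89282442) held none. That match was not assigned to p16Ink4a or p19Arf. The level of Cdkn2a was 10.4, 11.9 and 14.2 CPM in EGFP and 13.1, 12.2 and 11.9 CPM in Zac1. The EGFP libraries spread over the whole range of the Zac1 libraries, and the log2 fold change was 0.03 (SE 0.12, 95% interval -0.23 to 0.29, adjusted p = 0.937).

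Cdkn2b, its neighbour on chromosome 4 (89306299 to 89311039, where Cdkn2a spans 89274471 to 89294653), was at 14.1, 12.8 and 13.0 CPM in EGFP and 13.0, 12.4 and 12.8 CPM in Zac1. The log2 fold change was -0.06 (SE 0.10, 95% interval -0.28 to 0.15, adjusted p = 0.81). The groups overlapped, with the highest value in EGFP 1. Both genes were read in every library, with 156 to 219 reads for Cdkn2a and 191 to 236 for Cdkn2b.

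Cdkn2c, whose product also binds CDK4 and CDK6, was at 19.6, 24.4 and 20.2 CPM in EGFP and 23.4, 23.2 and 22.0 CPM in Zac1. EGFP 2 was above every Zac1 library and the other EGFP libraries below them. The log2 fold change was 0.09 (SE 0.10, 95% interval -0.11 to 0.30, adjusted p = 0.688). Summed per kilobase, Cdkn2a (p19Arf reads included), Cdkn2b and Cdkn2c were at 31.8 ± 1.9 CPM per kb in EGFP (SD, n = 3). In Zac1 the sum was 32.3 ± 1.08, with p = 0.8 by the same exact test. The level of Ccnd1 over that sum was 13.3 ± 0.838 in EGFP and 14.0 ± 0.418 in Zac1 (exact p = 0.3).

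E2f1, the E2F factor that the retinoblastoma protein holds back in G1, was at 42.5, 43.7 and 40.2 CPM in EGFP and 43.9, 42.4 and 45.8 CPM in Zac1. The groups overlapped, and the log2 fold change was 0.06 (SE 0.07, 95% interval -0.08 to 0.21, adjusted p = 0.701). For the 7 genes whose groups overlapped, the intervals lay between -0.28 and 0.30, so changes larger than about that on the log2 scale lie outside them. A p that misses the threshold does not show that the levels were equal.

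Levels of different genes were compared only as CPM per kilobase of the longest transcript. In EGFP the order was Ccnd1 (423 ± 6.23), Ccnd2 (44.5 ± 4.84), Cdkn1b (29.4 ± 0.805), E2f1 (15.3 ± 0.659), Ccnd3 (14.8 ± 0.819), Ccne2 (14.4 ± 2.05), Cdkn2a (13.6 ± 2.13), Ccne1 (10.3 ± 1.4), Cdkn2b (9.58 ± 0.499) and Cdkn2c (8.66 ± 1.06). The first 3 were each apart from the next in every library, and every neighbouring pair from E2f1 down overlapped. In Zac1 the level of Ccne1 was 13.8 ± 0.863 CPM per kb, apart from Cdkn2c (9.25 ± 0.302) and Cdkn2b (9.16 ± 0.23), while it overlapped Cdkn2a (13.9 ± 0.714). The order depends on the length used. Per kilobase of all exons joined, a choice added after seeing the data, Ccnd3 was at 6.52 instead of 14.8 CPM per kb in EGFP, the lowest of the 10, and Ccnd2 (30.0) overlapped Cdkn1b (29.4).

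Each EGFP library was the highest of its group for 2 to 5 of the 10 genes and the lowest for 2 to 4. Within Zac1, replicate 4 was the highest for 7 genes, replicate 6 for 3 and replicate 5 for 0. The spread between EGFP replicates ran from an SD of 1.47% of the mean for Ccnd1 to 15.7% for Cdkn2a, and that between Zac1 replicates from 0.326% for Ccnd1 to 9.53% for Ccne2.

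**Figure D3:**
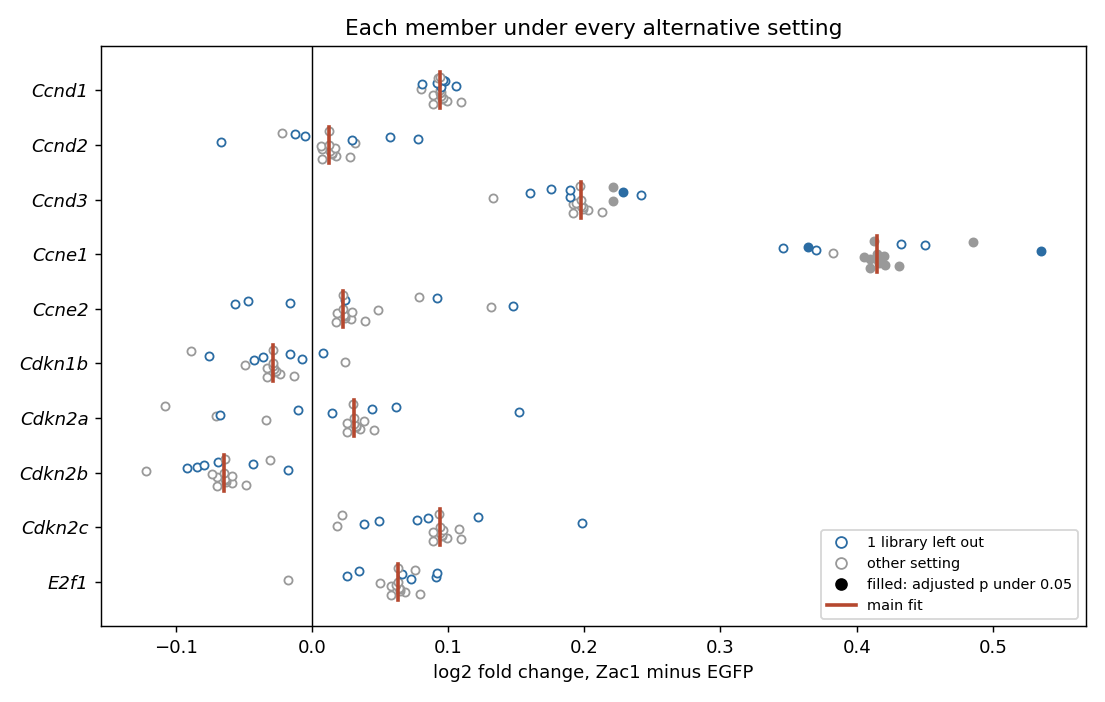
Log2 fold change (horizontal axis) of each gene in the main fit (red bar) and under each alternative setting (blue, 1 library left out; grey, other settings; filled where adjusted p is under 0.05). Ccne1 lies between 0.35 and 0.54 throughout, with filled and open points, while Ccnd2, Ccne2, Cdkn1b, Cdkn2a and E2f1 fall on both sides of 0.

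Other genes of the G1 pathway were described from 6 lists, chosen with earlier results of these data known. The kinases, their activators and the remaining CDK inhibitors showed no call among 10 tested genes (median log2 fold change 0.02). The 2 smallest p-values were those of Cdkn3, a phosphatase that acts on CDK2 (-0.37, adjusted p = 0.192), and Cdk7, the CDK-activating kinase (-0.16, adjusted p = 0.232). At an unadjusted p under 0.05, 0 were higher and 2 lower. DESeq2 and limma on log2(CPM + 1) called 0, and voom with quality weights called these 2 as lower. Over the 18 alternative fits, Cdkn3 passed in 4 and Cdk7 in 2. The groups overlapped for Cdkn3, with EGFP 2 at 13.4 CPM and the Zac1 libraries at 15.1, 12.6 and 13.3 CPM. Of the CIP/KIP genes on that list, Cdkn1a was at 187 ± 5.36 CPM in EGFP and 198 ± 2.31 CPM in Zac1 (adjusted p = 0.476). Cdkn1c had 6 reads in all EGFP and 20 in all Zac1 libraries, below the count minimum.

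Of 12 pocket protein, E2F and DP genes, 0 passed by edgeR, DESeq2, limma or voom (median 0.04). At an unadjusted edgeR p under 0.05, 1 was higher and 0 lower. E2f7, a repressive E2F, was at 0.24 (adjusted p = 0.255) and the pocket protein gene Rbl2 at -0.14 (adjusted p = 0.377). Of 16 tested parts of the ubiquitin ligases that degrade G1 cyclins and inhibitors, 0 passed by edgeR, DESeq2 or limma (median -0.04), and voom called Skp1a lower. At an unadjusted edgeR p under 0.05, 1 was higher and 1 lower. Skp1a, an SCF core subunit, was at -0.16 (adjusted p = 0.21) and Btrc, an F-box protein gene, at 0.16 (adjusted p = 0.257).

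Targets of E2F in DNA synthesis also showed no call among 27 tested genes, with 20 fold changes above 0 and 7 below 0 (median 0.06), where over all tested genes 6009 were above 0 and 6121 below. At an unadjusted edgeR p under 0.05, 2 were higher and 0 lower; DESeq2 and limma called 0, and voom called these 2, Tk1 and Chaf1a, as higher. Tk1, thymidine kinase, was at 0.14 (adjusted p = 0.205) and Chaf1a, a histone chaperone subunit, at 0.18 (adjusted p = 0.266). Cdt1, a replication licensing factor, is listed at 0 in every library, and whether its reads were dropped in counting is not known. Of 20 mitosis genes 0 passed, with 17 above 0 and 3 below 0 (median 0.07), and 1 was higher and 0 lower at an unadjusted edgeR p under 0.05. DESeq2 and limma called 0. Plk1, a mitotic kinase, was at 0.17 (adjusted p = 0.0904) and Kif20a, a kinesin of cell division, at 0.10 (adjusted p = 0.322). Plk1 passed in 3 of the 18 alternative fits, namely with voom quality weights (adjusted p = 0.0142), without Zac1 4 (adjusted p = 0.0498) and with EGFP 1 and Zac1 4 both left out. Leaving out both of those libraries lowers the replicate spread, so passing in that fit is no firmer evidence.

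**Figure D4:**
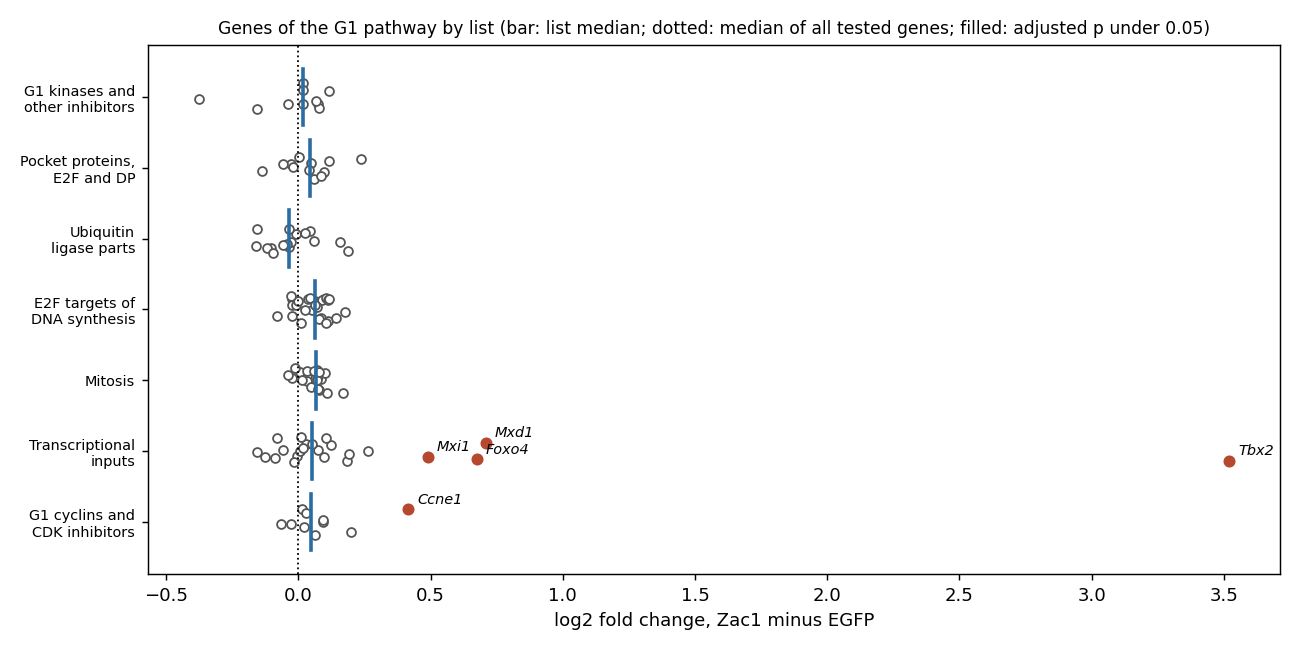
Log2 fold changes (horizontal axis, Zac1 minus EGFP) of the tested genes of each G1 pathway list and of the 10 G1 cyclins and CDK inhibitors; blue bars are list medians, the dotted line the median of all tested genes, and filled points genes that passed the test. The 5 filled points are Ccne1 and the transcriptional inputs Foxo4, Mxi1, Mxd1 and Tbx2.

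Among 23 tested transcriptional inputs to G1 cyclins and inhibitors, 4 passed as higher and 0 as lower (median 0.05), where 3.12% of all tested genes were higher and 0.668% lower. One of the 4, Tbx2, passed the count minimum through the Zac1 group alone. The list was chosen with earlier results of these data known. Foxo4 encodes a forkhead factor that can activate Cdkn1b. It rose from 23.1 ± 1.81 to 36.9 ± 2.03 CPM (SD, n = 3), with EGFP libraries at 21.2, 24.8 and 23.4 and Zac1 libraries at 35.0, 36.8 and 39.0 CPM (log2 fold change 0.68, SE 0.08, edgeR adjusted p = 0.000306). Its groups were far apart, and it passed in all 18 alternative fits. Cdkn1b had an interval from -0.15 to 0.09, and a link between Foxo4 and Cdkn1b was not tested.

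Mxi1 and Mxd1 encode MAD-family proteins, which compete with MYC for their shared partner MAX. Mxi1 was at 22.2, 21.6 and 20.5 CPM in EGFP and 29.4, 28.6 and 32.1 CPM in Zac1 (log2 fold change 0.49, SE 0.08, adjusted p = 0.00292). Mxd1 was at 12.2, 8.92 and 9.45 CPM in EGFP and 18.2, 16.2 and 15.7 CPM in Zac1 (0.71, SE 0.13, adjusted p = 0.00468). Both were apart between the groups and passed in all 18 alternative fits, at an adjusted p up to 0.0319 for Mxi1 and 0.0492 for Mxd1. Myc itself was at 0.03 (adjusted p = 0.891) and Max at -0.004 (adjusted p = 0.987).

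Tbx2, a T-box repressor known to act on Cdkn2a, was near silent in EGFP. It had 1, 3 and 0 reads in EGFP and 15, 24 and 18 reads in Zac1, or 4 against 57 reads in all. It met the mean count minimum of 10 only through the Zac1 libraries, and missed it when any 1 of them was left out, so its values are a description and its passing the test is no support. Cdkn2a had a log2 fold change of 0.03 in the same libraries, and a link between Tbx2 and Cdkn2a was not tested. Of the forkhead genes, Foxo3 was at 0.19 (adjusted p = 0.196) and Foxo1 at 0.18 (adjusted p = 0.312).

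**Figure D5:**
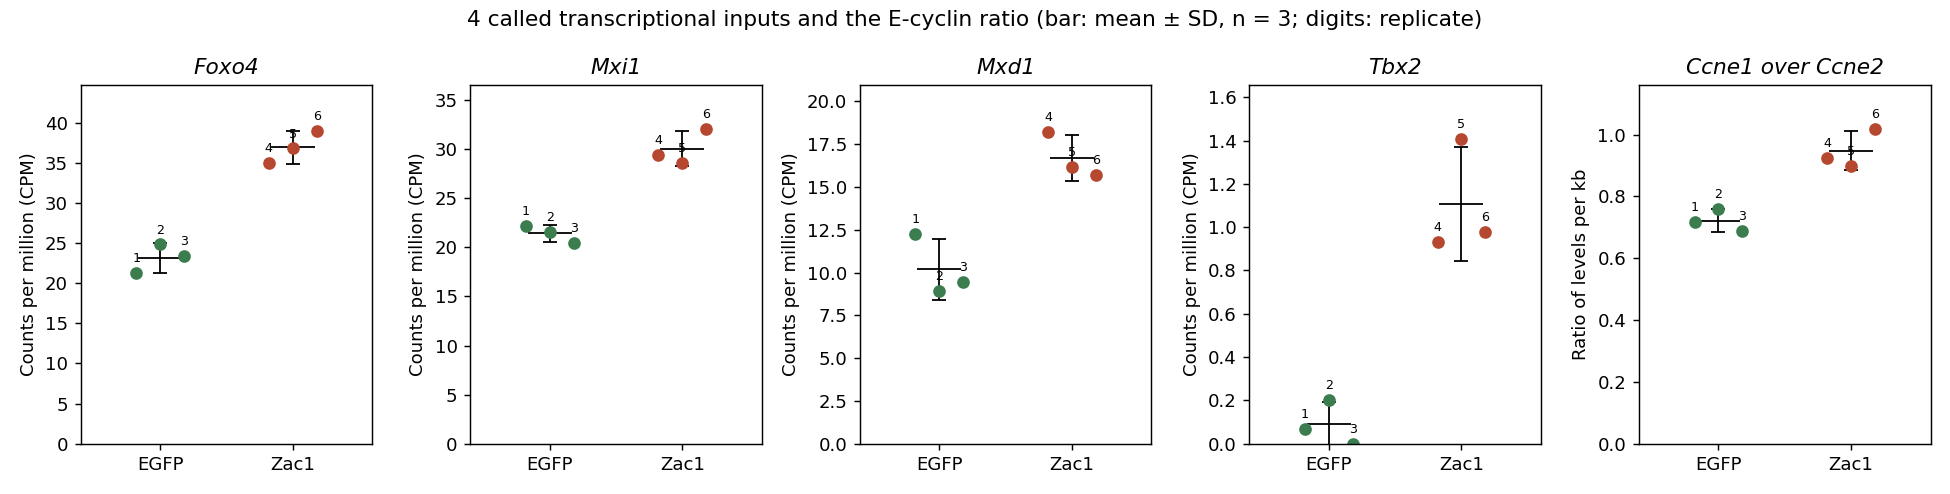
Levels in CPM of Foxo4, Mxi1, Mxd1 and Tbx2, and the ratio of Ccne1 to Ccne2 levels per kb (vertical axes, from 0), in every EGFP (green) and Zac1 (red) library; digits are replicates and bars the mean ± SD of 3. In each panel all 3 Zac1 libraries lie above all 3 EGFP libraries.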

How the data were processed

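The 10 genes and the 6 lists of other G1 genes were chosen with earlier results of these data known. The deposited table gives counts of reads for each gene in each library. STAR, HTSeq, FastQC and DESeq2 are named, per the submitters' processing notes, without versions; the build, annotation and strand setting are not stated there. The table is called normalized, but its values are whole numbers with library totals of 14801240 to 18302538, and no library skips a whole number between 1 and 40 (0 absent), so they were treated as unscaled counts.

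Symbols were matched through GENCODE M21 (GRCm38) for 49326 of 49585 Ensembl IDs; coordinates, lengths and GC contents come from that annotation and promoters from RefSeq. The 12130 genes whose mean count was 10 or more were tested for Zac1 minus EGFP in edgeR 4.0.16 (R 4.3.3), by its quasi-likelihood test after TMM scaling (two-sided, prior count 0.125). P-values were adjusted by Benjamini-Hochberg over those genes, at a threshold of 0.05. CPM uses TMM-scaled totals. The standard error (SE) is the log2 fold change divided by the square root of F. Replicate pairs differed by more than sampling noise (chi-square per degree of freedom 2.29 to 8.83). It was 4.67 to 8.83 for pairs with EGFP 1 or Zac1 4, and 3.04 and 2.29 for the pairs without them. The replicate numbers are not shared between groups, so nothing was paired.

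On counts simulated for this comparison (12058 genes), the fit recovered 44.9% of genes changed 1.25-fold, 67.3% changed 1.5-fold, 95.7% changed 2-fold and 97.9% changed 4-fold, with 9 false calls. The text names all 10 genes, Plagl1, and from each list up to 4 genes past the test, or the 2 with the smallest p; other list genes were named after their values were seen. Alternatives were other scalings, filters and prior count, robust variance, DESeq2 1.42.0, limma 3.58.1, GC offsets and leaving out libraries. EGFP itself was not analysed here.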

Additional observations from a re-analysis of the deposited data

How the results depend on the processing

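The fold changes of Ccnd1, Ccnd3, Ccne1, Cdkn2b and Cdkn2c kept their sign in all 19 alternatives. For Ccnd1, Ccnd3 and Ccne1, whose groups did not overlap, leaving libraries out could hardly reverse it. In the main analysis 1 of the 10 genes was called higher. That count was 2 with voom quality weights, 0 with GC offsets, 2 with EGFP 1 and Zac1 4 both left out, and 0 to 2 when 1 library was left out. The count called lower was 0 in every setting.

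Signs changed for 5 genes near 0. Ccnd2 was -0.022 with both of those libraries left out and -0.067 to 0.078 with 1 library left out. Ccne2 was -0.056 to 0.148 with 1 left out. With GC offsets Cdkn1b was 0.024, Cdkn2a -0.070 and E2f1 -0.018. Cdkn2a was -0.033 with voom quality weights, -0.108 with both libraries left out and -0.067 to 0.152 with 1 left out, and Cdkn1b was -0.075 to 0.0082.

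Over all tested genes, the main 378 higher and 81 lower calls became 731 and 248 with no filter, 190 and 51 with a minimum of 50, 797 and 500 under voom quality weights, and 853 and 608 with both libraries left out. Leaving out 1 library gave 125 lower without EGFP 1, 214 higher and 22 lower without EGFP 3, 584 and 379 without Zac1 4, 187 and 19 without Zac1 5, and 196 and 25 without Zac1 6. Prior degrees of freedom were infinite with no filter and 1563 with both libraries left out, far above the main fit, so p-values there are no firmer evidence. Among the list genes, 4 higher calls became 9 under voom quality weights and 11 with both libraries left out. The 0 lower calls became 1 with no filter, 3 under voom, 3 with both libraries left out and 0 to 1 with 1 left out. The cause was not tested. No paired analysis was possible because the groups share no replicate numbers. Depth limits what can be said of Tbx2 and Cdkn1c, with 4 and 6 reads in all EGFP libraries, and Cdt1 and Tbx3 are listed at 0 in all libraries.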
